A study of Mus musculus with 6 samples.

Results

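The opioid peptides and their receptors are 7 genes of the 24062 symbols counted in RNA from the mouse ventral dentate gyrus. They were taken by symbol. Penk, Pdyn and Pnoc are the 3 precursors, and Oprm1, Oprd1, Oprk1 and Oprl1 are the 4 receptors. Male mice of the strain labelled C57black 6 had either gone through chronic restraint stress, in which an animal is held confined again and again (CRS, 3 libraries), or had been left unstressed (Ctrl, 3 libraries). No transgene, drug or other agent is named for either group, and the sources used here give neither the length of the stress nor the age of the mice nor the number of animals per library. Per the labels the 3 replicates of a group are biological, the libraries hold total RNA depleted of ribosomal RNA, and they were sequenced as a single pool. The tissue was dissected whole, so in these values fewer cells of a type and less RNA per cell cannot be told apart.

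Opioid peptides are cut from large precursors that are stored in dense-core vesicles, and they act on receptors coupled to inhibitory G proteins, which lower cyclic AMP, open inwardly rectifying potassium channels and close presynaptic calcium channels. Granule neurons of the dentate gyrus, whose axons are the mossy fibres, are known to make enkephalin and dynorphin, while nociceptin and the mu and delta receptors are known in rodents mainly from hippocampal interneurons. Dynorphin acting on the kappa receptor is associated with the aversive side of stress, and nociceptin acts on a related receptor that does not bind the classical opioids.

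Gene counts summed to between 8575540 and 9626686 in the CRS libraries and to between 8305753 and 10107953 in the Ctrl libraries. Levels are given as CPM, which puts the gene counts of each library on a common total, and the 3 counts that a count of 0 allows are worth 0.297 to 0.361 CPM, which covers counting error only. The library labelled CRS1 stood apart. Compared over all but the lowest-count genes, its chi-square per degree of freedom was 16.3 and 18.7 against the other 2 CRS libraries. It was 2.97 between those 2, the lowest of all pairs, and 3.30 to 5.08 between Ctrl libraries. Against the Ctrl libraries CRS1 gave 16.9 to 19.5, CRS2 3.43 to 5.30 and CRS3 6.16 to 8.46. CRS1 held 7308 CPM of choroid plexus markers, against 150 to 195 CPM in CRS2 and CRS3 and 181 to 203 CPM in the Ctrl libraries. It also had the lowest sum of granule neuron markers, at 333 CPM, against 688 and 804 CPM in CRS2 and CRS3 and 570 to 737 CPM in Ctrl. The defining granule gene Prox1 was present in every library, with 47.5, 123 and 127 CPM in CRS1, CRS2 and CRS3, against 132, 115 and 93.1 CPM in Ctrl1, Ctrl2 and Ctrl3. Fold changes below are therefore given with CRS1 and without it.

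All 7 opioid genes were detected in all 6 libraries, and all 7 passed the filter on low counts. None of the 7 passed the test of stress against control, by edgeR's quasi-likelihood test with Benjamini-Hochberg adjustment over the 14058 tested genes and a threshold of 0.05. That test called 0 genes higher and 4 lower over the whole table, a background of 0.0285%. Without CRS1 none of the 7 passed either, where 41 of 14188 tested genes did, a background of 0.289%. The range between libraries was widest for Penk and Oprk1, and CRS1 was the highest library for both, though Oprk1 also varied most of the 7 among the other 5 libraries. Among the other 5 libraries no opioid gene separated stress from control except Oprl1, which was slightly lower in every CRS library. Without CRS1 the groups did not overlap for 29.2% of all tested genes.

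**Figure D1:**
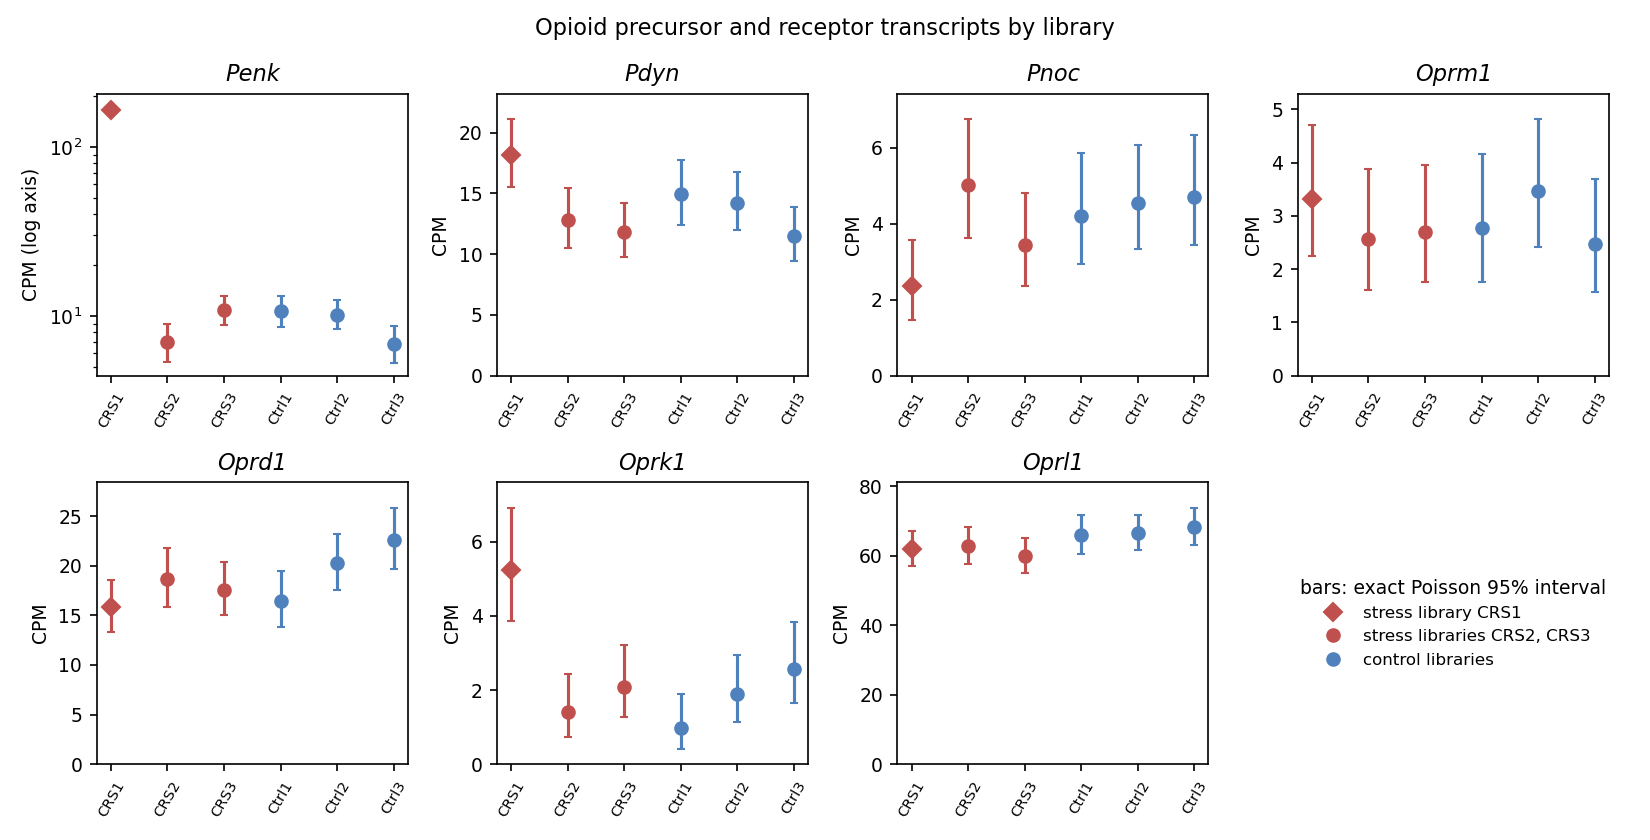
Level of each opioid precursor and receptor gene in each library, in CPM, with a log axis for Penk and axes from 0 for the others. Points are single libraries, with CRS on the left and Ctrl on the right, and bars are exact Poisson 95% intervals of the counting error. Penk stands at 165 CPM in CRS1 and between 6.86 and 10.8 CPM elsewhere, and for Oprl1 the 3 CRS points lie below the 3 Ctrl points.

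Penk encodes proenkephalin, the source of the enkephalins, which act mainly on the delta and mu receptors. It lies on chromosome 4 from 4133531 to 4138819 on the minus strand (GRCm38, as are all positions here). Its level was 165, 6.997 and 10.8 CPM in CRS1, CRS2 and CRS3, against 10.7, 10.2 and 6.86 CPM in Ctrl1, Ctrl2 and Ctrl3. The library CRS1 was far above every other library, while CRS2 and CRS3 lay within or next to the Ctrl range, so the groups overlapped. The CRS1 value rests on 1546 counts, with an exact Poisson 95% interval of 157 to 174 CPM, against 60 to 104 counts in each of the other 5 libraries. The ratio of CRS1 to the highest other library was 15.3, and 7 of the tested genes, or 0.0498%, had a ratio at least as large. The low-count filter left out genes seen almost only in CRS1, such as Folr1, with 38.6 CPM there and at most 0.120 CPM elsewhere. The share therefore does not cover such genes, and neither do the shares given below for Pdyn and Oprk1. The group means were 61.0 ± 90.3 CPM in CRS and 9.26 ± 2.09 CPM in Ctrl (SD, n = 3 each). By edgeR's quasi-likelihood test the log2 fold change was 2.75 (adjusted p = 0.538). By limma-voom, which averages on the log scale and so weighs 1 high library less, it was 1.38, with a 95% interval from -1.43 to 4.20.

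Without CRS1 the log2 fold change of Penk was -0.04, with an adjusted p of 0.974 by edgeR's quasi-likelihood test. Its limma-voom interval then ran from -0.56 to 0.49, so these 5 libraries leave room for a moderate change in either direction. Even among those 5 libraries Penk varied more than counting alone would give, with a coefficient of variation of 22.0%, where its counts give 10.9%. An exon of an antisense transcript, A830012C17Rik, overlaps 233 bp of the exons of Penk, and as the strand setting of the counting is not given, reads of that transcript may be included.

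Pdyn encodes prodynorphin, the source of the kappa receptor's peptides. It lies on chromosome 2 from 129686565 to 129699844 on the minus strand. The peptides it yields share the leucine-enkephalin core and differ in what follows. The stretches of the gene that encode the opioid cores of dynorphin A and dynorphin B, with their flanks, are shown here. The precursor transcript counted below carries both. They lie in exon 4 of 4, at chr2:129688106-129688150 and chr2:129688049-129688093, and are given in the sense of the transcript, 5′ to 3′ on the minus strand, from GENCODE release M21. Capitals mark the 5 codons of the opioid core, the 2 codons before it encode the pair of basic residues at which the precursor is cut, and 24 bases follow.
dynorphin A unit: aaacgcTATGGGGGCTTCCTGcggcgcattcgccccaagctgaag
dynorphin B unit: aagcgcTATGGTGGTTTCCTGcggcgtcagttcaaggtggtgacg

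The core of the dynorphin B unit differs from that of the dynorphin A unit at 2 bases. Counts per gene do not tell these units apart, so the values below are of the whole precursor transcript. Pdyn had 18.2, 12.8 and 11.8 CPM in CRS1, CRS2 and CRS3, against 14.9, 14.2 and 11.5 CPM in Ctrl1, Ctrl2 and Ctrl3. The library CRS1 was again the highest, at 1.22 times the highest of the others, and CRS2 and CRS3 lay inside the Ctrl range. Of the tested genes 804, or 5.72%, had a ratio at least as large. The means were 14.3 ± 3.41 CPM in CRS and 13.5 ± 1.83 CPM in Ctrl (SD, n = 3 each). The log2 fold change of 0.09 was smaller than the spread between libraries, with an adjusted p of 0.933 by edgeR's quasi-likelihood test and a limma-voom 95% interval from -0.36 to 0.51. Without CRS1 it was -0.13, with an adjusted p of 0.805 and an interval from -0.46 to 0.22.

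Pnoc encodes prepronociceptin, the source of nociceptin, the peptide of the Oprl1 receptor. It lies on chromosome 14 from 65400673 to 65425472 on the minus strand. It had 2.35, 5.01 and 3.43 CPM in CRS1, CRS2 and CRS3, against 4.21, 4.55 and 4.72 CPM in Ctrl1, Ctrl2 and Ctrl3. Here CRS1 was the lowest of the 6 libraries and CRS2 the highest, so the CRS values enclosed the Ctrl values. These levels rest on 22 to 46 counts per library, and the spread of 13.9% among the 5 libraries without CRS1 was no wider than the 15.8% that their counts give. The means were 3.60 ± 1.34 CPM in CRS and 4.49 ± 0.256 CPM in Ctrl (SD, n = 3 each). By edgeR's quasi-likelihood test the log2 fold change was -0.32 (adjusted p = 0.815), and the limma-voom interval ran from -0.98 to 0.22. Without CRS1 it was -0.10, with an adjusted p of 0.931 and an interval from -0.65 to 0.40.

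The makeup of the precursor pool followed Penk. On the scale of CPM per kilobase of exon, Penk made up 93.2, 38.8 and 53.7% of the summed level of the 3 precursors in CRS1, CRS2 and CRS3, against 47.9, 47.0 and 40.5% in Ctrl1, Ctrl2 and Ctrl3. Pdyn made up 5.80, 40.2 and 33.3% in the CRS libraries, against 37.8, 37.2 and 38.4% in the Ctrl libraries. Outside CRS1, Penk thus held the larger share of the pair in CRS3 and in every Ctrl library, by little in Ctrl3, and Pdyn the slightly larger in CRS2. The share of Pnoc was 1.005, 21.04 and 12.9% in the CRS libraries, against 14.3, 15.9 and 21.1% in the Ctrl libraries, and the groups overlapped for all 3 shares.

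Oprl1, the nociceptin receptor, lies on chromosome 2 from 181715016 to 181720985 on the plus strand, and it was the best measured opioid gene, with 538 to 673 counts per library. It had 61.8, 62.7 and 59.8 CPM in CRS1, CRS2 and CRS3, against 65.9, 66.6 and 68.3 CPM in Ctrl1, Ctrl2 and Ctrl3. Every CRS library lay below every Ctrl library, and CRS1 did not stand apart for this gene. It was the only one of the 7 whose groups did not overlap. CRS lay wholly below Ctrl for 1269 of all tested genes, a background of 9.03%, and wholly above for 799, or 5.68%, which held for 0 of the 7. The means were 61.5 ± 1.48 CPM in CRS and 66.9 ± 1.24 CPM in Ctrl (SD, n = 3 each). This is a log2 fold change of -0.11 (adjusted p = 0.731 by edgeR's quasi-likelihood test), with a limma-voom 95% interval from -0.26 to 0.05. The exact two-sided permutation p of the log2 CPM was 0.1, the smallest that 3 against 3 libraries allow.

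Without CRS1 the log2 fold change of Oprl1 was -0.12, with an adjusted p of 0.590 by edgeR's quasi-likelihood test and a limma-voom interval from -0.29 to 0.04. CRS2 and CRS3 both lay below all Ctrl libraries, as they did for 15.4% of the genes tested without CRS1. The exact Poisson 95% intervals of single libraries overlapped between the groups, such as 56.9 to 67.1 CPM for CRS1 and 60.5 to 71.6 CPM for Ctrl1. Overlap of separate intervals does not show that a difference lies within counting error, and the difference between single pairs of libraries was not tested.

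Oprd1, the delta receptor, on which enkephalins act, lies on chromosome 4 from 132110726 to 132144486 on the minus strand. It had 15.8, 18.7 and 17.6 CPM in CRS1, CRS2 and CRS3, against 16.5, 20.3 and 22.6 CPM in Ctrl1, Ctrl2 and Ctrl3. The CRS libraries lay towards the lower end, but Ctrl1 fell below CRS2 and CRS3, so the groups overlapped. The means were 17.3 ± 1.43 CPM in CRS and 19.8 ± 3.09 CPM in Ctrl (SD, n = 3 each). Its log2 fold change was -0.18, with an adjusted p of 0.778 by edgeR's quasi-likelihood test and a limma-voom interval from -0.48 to 0.12. Without CRS1 it was -0.13, with an adjusted p of 0.782 and an interval from -0.43 to 0.18.

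Oprm1, the mu receptor, which binds enkephalins and endorphin and is the main target of morphine, lies on chromosome 10 from 6758506 to 7038198 on the plus strand. It had 3.31, 2.57 and 2.70 CPM in CRS1, CRS2 and CRS3, against 2.77, 3.46 and 2.47 CPM in Ctrl1, Ctrl2 and Ctrl3. The values of the groups were interleaved, and CRS1 lay inside the range of the others. With 22 to 35 counts per library, the spread of 14.1% among the 5 libraries without CRS1 was below the 19.7% that their counts give. The log2 fold change was -0.0061, with an adjusted p of 0.996 by edgeR's quasi-likelihood test. The limma-voom interval ran from -0.55 to 0.54, so these libraries leave room for a moderate change in either direction. Without CRS1 it was -0.14, with an adjusted p of 0.904 and an interval from -0.73 to 0.49. An exon of Ipcef1 on the opposite strand overlaps 96 bp of the exons of Oprm1. Ipcef1 had 40.2, 77.9 and 72.7 CPM in the CRS libraries, against 85.7, 75.4 and 78.7 CPM in the Ctrl libraries, and its part in the counts of Oprm1 was not tested.

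Oprk1, the kappa receptor, on which dynorphins act, lies on chromosome 1 from 5588466 to 5606131 on the plus strand. It had the lowest mean CPM of the 7 in the Ctrl libraries, with 8 to 24 counts per library outside CRS1. It had 5.24, 1.40 and 2.08 CPM in CRS1, CRS2 and CRS3, against 0.963, 1.88 and 2.57 CPM in Ctrl1, Ctrl2 and Ctrl3. The library CRS1, with 49 counts and an exact Poisson 95% interval of 3.88 to 6.93 CPM, lay above the intervals of all the others, the highest of which was 1.65 to 3.83 CPM in Ctrl3. Its ratio to the highest other library was 2.04, and 159 of the tested genes, or 1.13%, had a ratio at least as large.

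The means of Oprk1 were 2.91 ± 2.05 CPM in CRS and 1.81 ± 0.807 CPM in Ctrl (SD, n = 3 each). Among the 5 libraries without CRS1 its coefficient of variation was 34.9%, where its counts give 24.5%. Over all 6 the log2 fold change was 0.70 (adjusted p = 0.786 by edgeR's quasi-likelihood test), with a limma-voom interval from -0.66 to 1.77. Without CRS1 it was -0.06 by edgeR, with an adjusted p of 0.981, and the limma-voom interval from -0.91 to 0.94 was the widest of the 7.

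**Figure D2:**
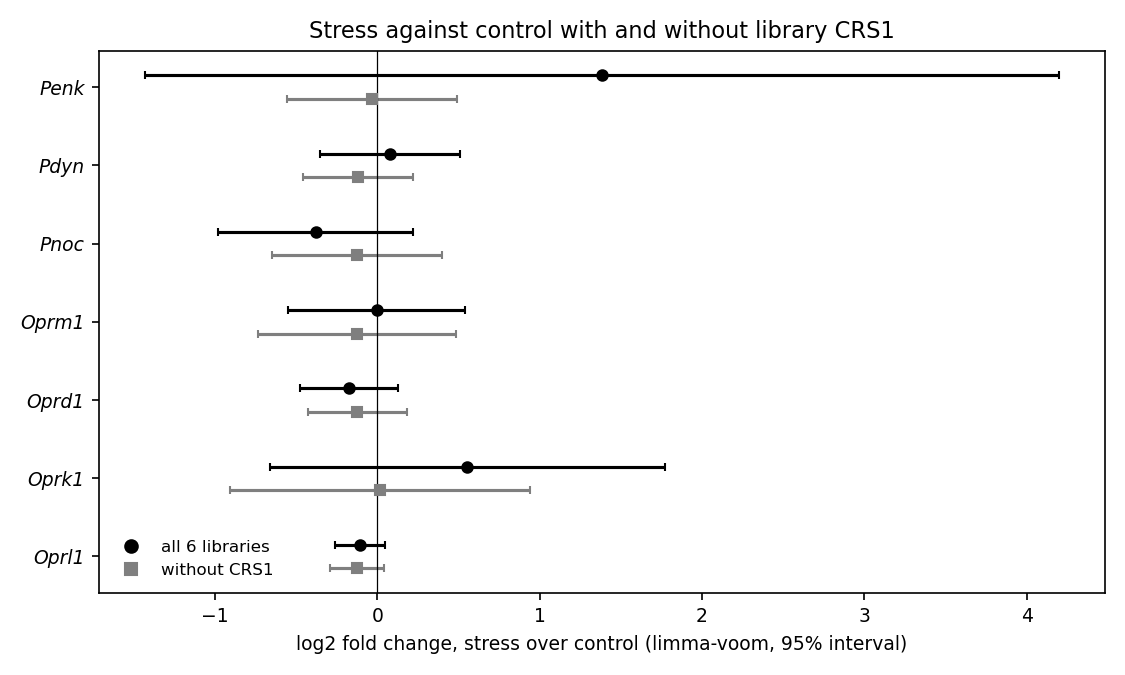
The log2 fold change of each opioid gene, CRS over Ctrl, from limma-voom with its 95% interval, with all 6 libraries (black circles) and without CRS1 (grey squares). All 14 intervals include 0. Penk is at 1.38 with CRS1 and -0.04 without it, Oprk1 is at 0.55 with CRS1 and 0.01 without it, and the interval of Oprl1 is the narrowest in both.

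Set side by side, the 7 genes had log2 fold changes of both signs with all libraries, 3 positive and 4 negative, where 49.0% of all tested genes were negative. Penk was the single one with an unadjusted p under 0.05, at 0.0338 by edgeR's quasi-likelihood test, where 8.71% of all tested genes had one. Without CRS1 all 7 were negative by edgeR, with values from -0.14 to -0.04, where 51.5% of all tested genes were negative. By limma-voom Oprk1 was then at 0.01 and the other 6 were negative. None of the 7 had an unadjusted p under 0.05 without CRS1, where 11.5% of all tested genes did. The median of the 7 was -0.0061 with all libraries and -0.12 without CRS1, where the median over all tested genes was 0.0038 and -0.0053. The limma-voom 95% interval of every one of the 7 included 0 in both fits.

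The receptors and precursors were ordered by their level per length, as CPM per kilobase of the joined exons, since longer transcripts give more reads. In the Ctrl libraries Oprl1 was highest, at 17.8 CPM per kb, and Penk (5.66), Oprd1 (4.92) and Pdyn (4.69) followed close together. Penk and Oprd1 overlapped over the Ctrl libraries, as did Oprd1 and Pdyn, so the order of these 3 is not settled by their spread. Pnoc stood at 2.08 CPM per kb, Oprm1 at 0.361 and Oprk1 at 0.197, each below the range of the gene before it. In CRS2 and CRS3 the level of Penk was 4.28 and 6.61 CPM per kb, while in CRS1 it was 101, above that of Oprl1, which was 16.5. Exon lengths are least certain for Oprm1, which has 17 annotated coding transcripts. With the longest coding transcript in place of all joined exons, Pdyn and Oprd1 changed places and no other rank moved.

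Oprl1 made up most of the summed receptor level per length in every library, with 77.0, 76.6 and 76.4% in CRS1, CRS2 and CRS3, against 79.4, 75.7 and 74.5% in Ctrl1, Ctrl2 and Ctrl3. Oprd1 came next, with 18.4 to 21.3% in the CRS libraries and 18.6 to 23.0% in the Ctrl libraries. The shares of Oprl1 and Oprd1 overlapped between the groups, with CRS1 inside the range of the others for Oprl1 and just below it for Oprd1. Oprm1 made up 1.93, 1.46 and 1.61% in CRS1, CRS2 and CRS3, against 1.56, 1.84 and 1.26% in Ctrl1, Ctrl2 and Ctrl3. The share of Oprk1 was 2.68, 0.701 and 1.09% in the CRS libraries, against 0.476, 0.877 and 1.15% in the Ctrl libraries. CRS1 held the highest share of both, well above the other libraries for Oprk1. The shares of both depend on the length used. Per kilobase of the longest coding transcript, the Ctrl mean was 1.20 CPM for Oprm1 and 0.386 CPM for Oprk1, against 0.361 and 0.197 CPM with the joined exons.

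**Figure D3:**
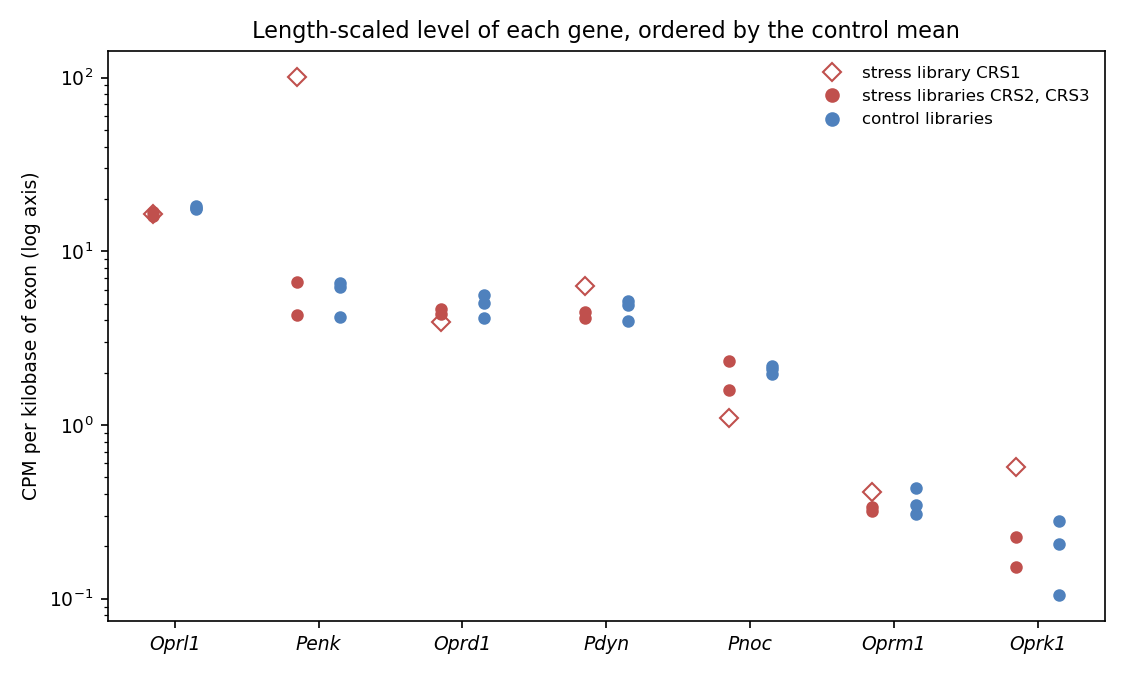
Level of each opioid gene per length, in CPM per kilobase of exon on a log axis, with genes ordered by the Ctrl mean. Each point is a library, with CRS on the left of each pair and CRS1 as an open diamond. Oprl1 is the highest in every library but CRS1, where Penk reaches 101 CPM per kb.

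The libraries with high Penk were set beside markers of cell types that the dissection could hold. Penk is also a well known marker of striatal projection neurons, so a list of 13 striatal genes was summed. It came to 1193, 446 and 476 CPM in CRS1, CRS2 and CRS3, against 410, 443 and 433 CPM in Ctrl1, Ctrl2 and Ctrl3. CRS1 was again the highest library, at 2.51 times the highest of the others, 12 of the 13 genes were highest there, and none was at 0 in any library. For this count and those of the lists below, 21.7% of all tested genes were highest in CRS1 and 29.5% were lowest there. The dopamine receptor gene Drd1a, the first of that list, had 41.7, 9.68 and 8.10 CPM in the CRS libraries, against 9.51, 5.94 and 13.1 CPM in the Ctrl libraries. Drd2 had 11.9, 1.52 and 1.87 CPM in the CRS libraries, against 1.81, 1.29 and 1.07 CPM in the Ctrl libraries.

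CRS1 was also the highest library for the other named striatal genes, while the order of the remaining libraries differed from gene to gene. Adora2a, the adenosine receptor of enkephalin-making striatal neurons, had 40.0, 0.933 and 1.14 CPM in the CRS libraries, against 1.69, 1.29 and 1.39 CPM in the Ctrl libraries. Ppp1r1b, the phosphatase regulator DARPP-32, had 139, 23.3 and 22.3 CPM in the CRS libraries, against 19.4, 22.6 and 23.9 CPM in the Ctrl libraries. Markers of ependymal cells, which line the ventricle, also stood highest in CRS1 for 8 of 8 genes, summing to 97.2 CPM, against 10.5 to 13.5 CPM in CRS2 and CRS3 and 10.4 to 11.3 CPM in Ctrl. So did those of the choroid plexus, for 10 of 10, of which 2 and 3 were at 0 in CRS2 and CRS3 and 1 in each Ctrl library. Markers of CA3 pyramidal neurons were highest in CRS1 for 7 of 7 genes, summing to 706 CPM, against 481 and 521 CPM in CRS2 and CRS3 and 396 to 512 CPM in Ctrl. Oligodendrocyte markers were highest there for 6 of 6, summing to 4261 CPM, against 2860 and 1817 CPM in CRS2 and CRS3 and 2266 to 2856 CPM in Ctrl. The part of any of these cells in the levels of Penk, Oprk1 and Pdyn in CRS1 was not tested.

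Markers of GABA interneurons, in which Pnoc, Oprm1 and Oprd1 are known to be made, summed to 695, 702 and 684 CPM in CRS1, CRS2 and CRS3, against 684, 684 and 755 CPM in Ctrl1, Ctrl2 and Ctrl3. The groups overlapped, CRS1 lay inside the range of the others and none of the 11 genes was at 0. In CRS1, 3 of the 11 genes were highest and 5 lowest, where 21.7% of all tested genes were highest and 29.5% lowest. The part of interneurons in the low levels of Pnoc and Oprd1 in CRS1 was not tested. Gad1, which makes GABA, had 286, 325 and 325 CPM in the CRS libraries, against 346, 348 and 381 CPM in the Ctrl libraries, with all CRS libraries below all Ctrl libraries and a log2 fold change of -0.18 (adjusted p = 0.540 by edgeR's quasi-likelihood test), or -0.14 without CRS1. Gad2, the other enzyme that makes GABA, had 212, 160 and 164 CPM in the CRS libraries, against 161, 151 and 165 CPM in the Ctrl libraries. Its groups overlapped, with CRS1 the highest and a log2 fold change of 0.18 (adjusted p = 0.732), or 0.03 without CRS1. Granule markers were lowest in CRS1 in sum, and all 8 of them were lowest there. Pdyn, which granule neurons are known to make, was highest in that same library, and the cells it came from were not tested.

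**Figure D4:**
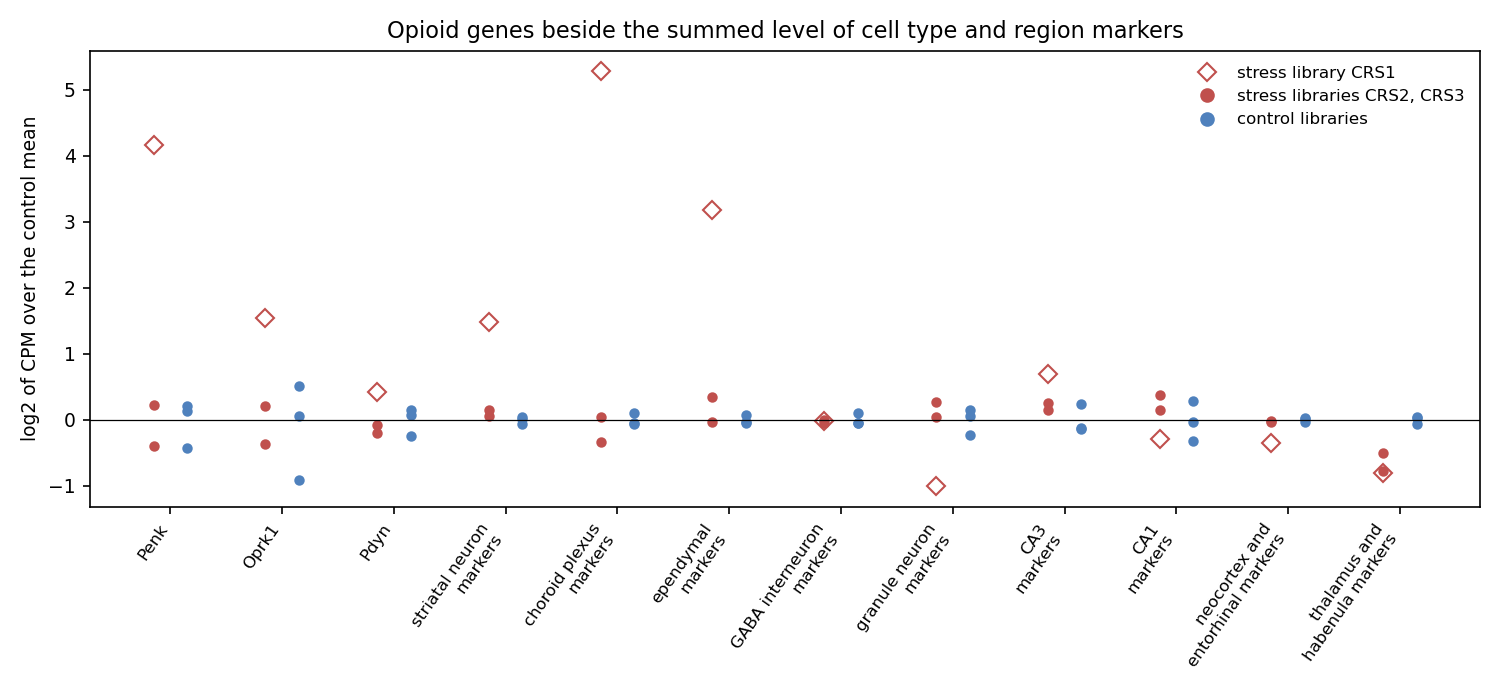
Level of Penk, Oprk1 and Pdyn, and of summed marker lists, in each library as log2 of CPM over the Ctrl mean. CRS points are on the left of each pair, with CRS1 as an open diamond, and Ctrl points are on the right. In CRS1, Penk and the striatal, choroid plexus and ependymal sums are high, the granule neuron sum is low and the GABA interneuron sum is at the Ctrl level.

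For each opioid gene the 3 genes whose log2 CPM followed it most closely over the 6 libraries were named, out of 12442 genes whose average log2 CPM was 1 or more. Pearson's r ran from 0.966 to 0.998 and is a description, since so few libraries give high values for many genes, and for Penk 171 genes had an r of at least 0.95. The genes were Cgnl1, Tspyl1 and Lman2 for Penk, Aox1, Rgs8 and Rpl28 for Pdyn, and Lrrc59, Brinp3 and Cecr5 for Pnoc. They were Vstm5, Dcxr and Cfdp1 for Oprm1, Adprhl2, Nxpe4 and Fastkd5 for Oprd1, Wdr45b, Rpl27 and Fam21 for Oprk1, and Rpl17, Dusp26 and Dcaf17 for Oprl1. Over the 5 libraries without CRS1, 0 of the 21 pairings recurred. Penk was then nearest to Gabra4, Rpia and Tmppe, and Oprl1 to Uchl5, Rasgef1b and Tmem56. Which genes were nearest thus depended on whether CRS1 was included.

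The enzymes and signalling partners of the opioid system were taken from 5 lists that hold 52 genes, of which 50 were tested. None passed the threshold, with 0 higher and 0 lower, and the smallest adjusted p was 0.202 by edgeR's quasi-likelihood test. Of the 50, 6 had an unadjusted p under 0.05, as did 8.71% of all tested genes. Their median log2 fold change was -0.0076, where that of all tested genes was 0.0038. CRS lay wholly above Ctrl for 1 of them, Adcy5, and wholly below for 6, Pcsk1, Kcnj9, Adcy8, Arrb1, Rgs7 and Rgs17, against the backgrounds of 5.68 and 9.03% given above. Without CRS1 51 were tested and none passed, where 0.289% of all tested genes did. Of the 51, 10 had an unadjusted p under 0.05, where 11.5% of all tested genes had one. The smallest adjusted p was then 0.0604 by edgeR's quasi-likelihood test.

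Among the 7 genes that cut and trim the precursors, the median log2 fold change was -0.0046, and -0.07 without CRS1. Pcsk1, the prohormone convertase that makes the first cuts, had 29.5, 37.4 and 30.0 CPM in CRS1, CRS2 and CRS3, against 39.0, 41.2 and 46.5 CPM in Ctrl1, Ctrl2 and Ctrl3. All CRS libraries lay below all Ctrl libraries, with a log2 fold change of -0.37 (adjusted p = 0.441 by edgeR's quasi-likelihood test) and of -0.32 without CRS1. Cpe, the carboxypeptidase that removes the basic residues left after cutting, had a log2 fold change of 0.08 (adjusted p = 0.826), and of 0.02 without CRS1. Its 3 CRS levels of 2029, 1818 and 1877 CPM overlapped the Ctrl levels of 1761, 1797 and 1911 CPM.

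Among the 10 genes for peptidases that degrade opioid peptides, the median was -0.01, and -0.03 without CRS1. Ace, the angiotensin-converting enzyme, had 82.2, 17.03 and 13.1 CPM in the CRS libraries, against 13.5, 13.1 and 14.8 CPM in the Ctrl libraries. As for Penk, CRS1 alone was high, and the log2 fold change of 1.47 (adjusted p = 0.573) became 0.13 without it. Anpep, aminopeptidase N, had 1.92, 1.28 and 1.87 CPM in the CRS libraries, against 3.49, 1.68 and 2.36 CPM in the Ctrl libraries. The groups overlapped, with a log2 fold change of -0.53 (adjusted p = 0.742 by edgeR's quasi-likelihood test) and of -0.63 without CRS1.

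Of the genes through which the receptors signal, 13 of 14 were tested, with a median of 0.05, and of -0.0047 over all 14 without CRS1. Adcy8, an adenylyl cyclase stimulated by calcium, had 19.0, 46.4 and 37.0 CPM in the CRS libraries, against 55.5, 57.1 and 65.8 CPM in the Ctrl libraries. All CRS libraries were lower, with a log2 fold change of -0.79 (adjusted p = 0.457), and without CRS1 it was -0.51 (adjusted p = 0.0807 by edgeR's quasi-likelihood test). Adcy5, the cyclase of striatal neurons and also on the striatal list, had 202, 112 and 126 CPM in the CRS libraries, against 87.2, 109 and 100.3 CPM in the Ctrl libraries. All CRS libraries were higher, with a log2 fold change of 0.59 (adjusted p = 0.503) with CRS1 and 0.28 (adjusted p = 0.257) without it.

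Of the genes that regulate the receptors or their G proteins, 16 of 17 were tested, with a median of -0.03, and of -0.09 without CRS1. Rgs17, which shortens signalling by inhibitory G proteins, had 103, 128 and 118 CPM in the CRS libraries, against 154, 158 and 174 CPM in the Ctrl libraries. It had the smallest p of all 5 lists, with all CRS libraries below all Ctrl libraries, a log2 fold change of -0.47 (adjusted p = 0.202 by edgeR's quasi-likelihood test) with CRS1 and -0.40 (adjusted p = 0.0604) without it. Rgs14, another such regulator, had 56.9, 65.0 and 74.3 CPM in the CRS libraries, against 43.5, 59.0 and 51.8 CPM in the Ctrl libraries. Ctrl2 lay above CRS1, so the groups overlapped, with a log2 fold change of 0.36 (adjusted p = 0.506), and of 0.44 without CRS1.

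The last list holds 4 other genes whose products give rise to or bind opioid peptides or drugs, with a median of 0.12, and of 0.09 without CRS1. Pomc, the precursor of beta-endorphin, had 0.749, 1.75 and 30.3 CPM in CRS1, CRS2 and CRS3, against 1.08, 0.890 and 3.54 CPM in Ctrl1, Ctrl2 and Ctrl3. The library CRS3 alone was high, on 292 counts, where the others held 7 to 33. Its log2 fold change of 2.59 missed the threshold (adjusted p = 0.611 by edgeR's quasi-likelihood test), as did the 3.15 without CRS1 (adjusted p = 0.148). Penk and Pomc each had a single high CRS library, CRS1 for Penk and CRS3 for Pomc, and in CRS3 Penk lay just above the Ctrl range, Pdyn inside it and Pnoc below it. Ackr3, an atypical chemokine receptor that takes up opioid peptides, had a log2 fold change of 0.25 (adjusted p = 0.701), and of 0.16 without CRS1.

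**Figure D5:**
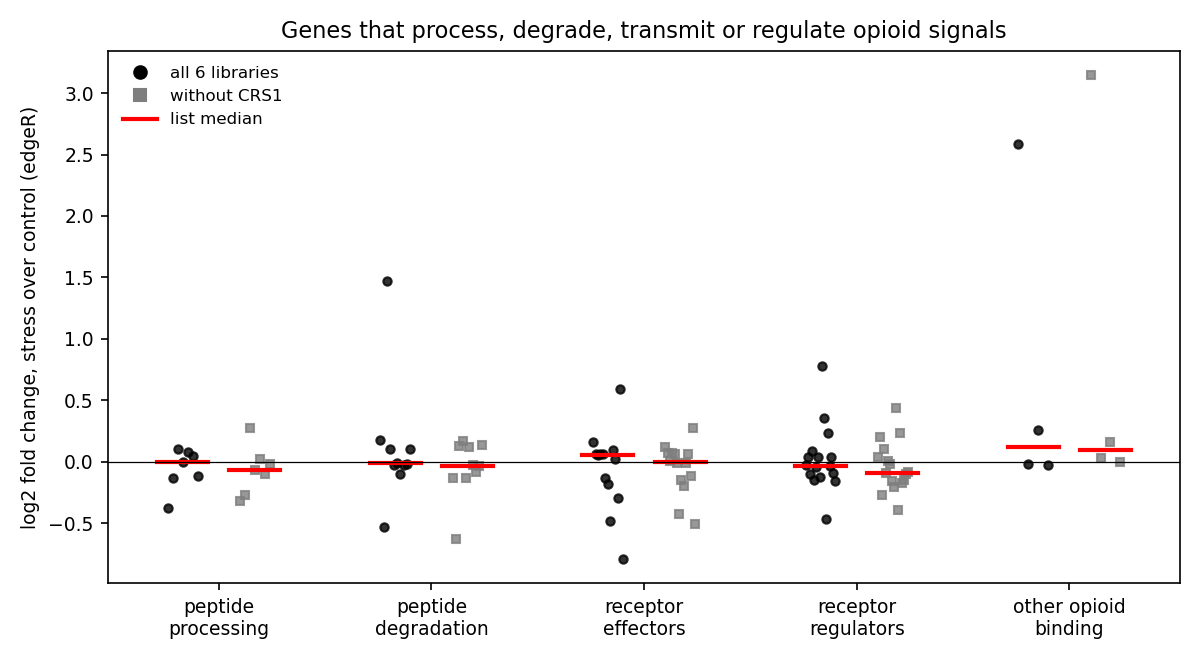
The log2 fold change, CRS over Ctrl by edgeR, of each tested gene of the 5 lists, with all 6 libraries (black circles) and without CRS1 (grey squares), and the median of each list as a red line. Medians lie between -0.09 and 0.12. Among the far points, Ace at 1.47 drops to 0.13 without CRS1, and Pomc is at 2.59 and at 3.15 without it.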

How the data were processed

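RNA from the ventral dentate gyrus was measured in 6 libraries. The authors deposited raw counts, 1 whole number for each gene symbol and library. Tools listed in the submitters' processing notes are edgeR 3.12.0, HTSeq 0.6.1, TopHat2 2.0.9, Trimmomatic 0.33 and FastQC 0.11.3, with GRCm38 and mm10 as builds, and no role or order is stated for them. The sources used here give no annotation, counting options or strand setting. Rows that name no gene (59.5 to 63.1% of listed reads for no feature, 0.211 to 0.253% ambiguous) were left out. All columns of the files belong to these samples, so 0 others were set aside.

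Levels are plain CPM over gene counts. Genes passing filterByExpr were scaled by TMM and tested with edgeR 4.0.16's quasi-likelihood test, two-sided, with group as the single term (R 4.3.3), and adjusted over all tested genes. Intervals and SE come from limma 3.58.1 voom. The fit was tested on simulated data in which only well-counted genes were changed and no library stood apart as CRS1 does. That simulation does not cover genes with counts as low as those of Oprk1, Oprm1 and Pnoc. Low counts limit precision, and the Poisson intervals cover counting error only. The p-values set the group difference against the spread between these libraries, and nothing says that each library came from a single animal.

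Alternatives were other scalings and filters, a threshold of 0.1, edgeR's exact test, limma-voom, DESeq2 1.42.0, the replicate block and leaving out each library. The genes named are the 7 members, the 2 with the smallest p of each pathway list and any past the threshold, up to 4 in list order of the striatal, GABA interneuron and granule lists, and the 3 nearest by Pearson's r. Ipcef1 and the non-overlapping genes of the lists were named after their values were seen. The members and lists were chosen with earlier results of these data known. Positions, exon lengths and the Pdyn sequences are from GENCODE M21 on GRCm38, matched by symbol.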

Additional observations from a re-analysis of the deposited data

How the results depend on the processing

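No opioid gene passed under any alternative run, with adjusted p-values from 0.275 to 1 over 112 values of 7 genes under 16 alternatives, and DESeq2 gave no p for Penk. In 105 of the 112 the direction was kept, though the threshold of 0.1 reuses the main fit and could not change it. The scalings, filters and other tests refit the same libraries. Of the 7 reversals, Penk and Oprk1 turned negative without CRS1, Pdyn without CRS1 or Ctrl3, and Oprm1 turned positive without CRS2, CRS3 or Ctrl2. Leaving out 1 library at a time, the log2 fold change ran from -0.0399 to 3.28 for Penk, -0.13 to 0.22 for Pdyn, -0.14 to 0.15 for Oprm1, -0.0560 to 1.03 for Oprk1, -0.61 (without CRS2) to -0.10 (without CRS1) for Pnoc and -0.29 (without Ctrl1) to -0.07 (without Ctrl3) for Oprd1. Over all genes, 39 genes were higher and 68 lower by DESeq2, 44 and 87 by edgeR's exact test, and 0 and 1 by limma-voom, and leaving out 1 library gave 0 to 11 higher and 0 to 30 lower. The cause was not tested. The groups did not overlap for 1 to 3 opioid genes, with 3 without CRS2 (Penk, Pnoc and Oprl1, background 26.0%) and 2 without Ctrl1 (Oprd1 and Oprl1, background 24.7%). With the replicate number as a block 0 genes were higher and 0 lower, and Penk had 1.70 (adjusted p = 0.583). Deviations from the group mean correlated at 0.137, -0.0076 and 0.042 for same-numbered libraries, and not every library correlated best with its own number. The CRS mean includes CRS1, whose deviations correlated at -0.72 and -0.74 with those of CRS2 and CRS3. These values therefore cannot decide whether the numbers pair libraries. The labels state no pairing, so the block was kept as an alternative. At the lowest levels, those of Oprk1, Oprm1 and Pnoc, counting limits what these libraries can show.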
